A study of Rattus norvegicus with 2 samples.

Results

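Heat shock proteins and chaperones of the endoplasmic reticulum (ER) were examined in cells of the rat carotid body grown in primary culture. They were taken as the genes whose deposited name held the words heat shock, chaperonin, disulfide isomerase or glucose-regulated protein, outside the row of housekeeping controls. The rule found 5 of the 1185 genes on the membrane: HSP27, HSP90-beta and HSP70 of the cytosol and nucleus, HSP60 of the mitochondrion and ERP72 of the ER. GRP78, a second ER chaperone, was missed by the letters of the rule because its deposited name has the mass between the words. It is described beside the 5 genes and not counted among them.

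The carotid body, a small organ at the carotid bifurcation, senses arterial oxygen, and the series asked how chronic hypoxia alters gene expression in its cells. Cultures of 16 carotid bodies from Sprague Dawley rats, all given nerve growth factor and horse and fetal bovine serum, were kept for 7 days at 21% oxygen (normoxia) or at 1% oxygen (chronic hypoxia). Amplified RNA was labelled with 32P and hybridised to nylon membranes, with 3 membranes per condition. By the labels the membranes are replicates, but separate cultures are not stated, so every p-value reflects the spread between membranes, and that may be technical.

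Chaperones bind unfolded proteins and help them fold, and each compartment has its own set. In the cytosol HSP90, HSP70 and the small heat shock proteins do this work, and heat shock factor raises their genes when proteins unfold. In the mitochondrial matrix HSP60 forms a folding chamber with HSP10. In the ER, GRP78 holds nascent chains and ERP72 makes and rearranges disulfide bonds, a step of secretory protein folding. Genes of the ER set are induced by the unfolded protein response through a promoter sequence, the ER stress element.

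Probe sequences were not used here. The promoters of HSP60 (Hspd1), ERP72 (Pdia4) and GRP78 (Hspa5) are shown because the first pair had the highest and the lowest difference between the conditions among the 5 genes, and GRP78 is the other ER chaperone. Each window is RefSeq's, of build GRCr8, from 250 bases before to 50 bases after the gene's start, 5′ to 3′ on the gene's strand. Capitals mark matches to the heat shock element, searched as GAANNTTCNNGAA, or to the ER stress element, searched as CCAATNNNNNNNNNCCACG, on both strands.
HSP60, chr9:64083988-64084287, minus strand: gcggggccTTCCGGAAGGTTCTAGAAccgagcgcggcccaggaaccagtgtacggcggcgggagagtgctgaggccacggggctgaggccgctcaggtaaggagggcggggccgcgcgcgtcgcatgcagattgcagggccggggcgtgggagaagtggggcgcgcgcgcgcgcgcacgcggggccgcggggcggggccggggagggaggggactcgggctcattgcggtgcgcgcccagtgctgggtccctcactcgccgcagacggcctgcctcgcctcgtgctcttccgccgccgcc
ERP72, chr4:78153142-78153441, minus strand: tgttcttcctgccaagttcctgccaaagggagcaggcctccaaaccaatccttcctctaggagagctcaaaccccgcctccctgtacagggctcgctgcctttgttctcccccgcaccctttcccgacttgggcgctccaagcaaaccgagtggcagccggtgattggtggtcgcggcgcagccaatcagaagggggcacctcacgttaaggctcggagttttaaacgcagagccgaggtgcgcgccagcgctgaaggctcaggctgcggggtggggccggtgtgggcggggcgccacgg
GRP78, chr3:38452766-38453065, plus strand: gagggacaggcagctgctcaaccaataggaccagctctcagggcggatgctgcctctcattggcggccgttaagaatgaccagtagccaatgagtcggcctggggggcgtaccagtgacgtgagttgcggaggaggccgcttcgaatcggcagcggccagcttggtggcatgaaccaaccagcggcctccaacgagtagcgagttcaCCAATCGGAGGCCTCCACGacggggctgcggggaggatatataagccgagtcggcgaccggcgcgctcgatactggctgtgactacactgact

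The HSP60 window held 2 overlapping matches to the heat shock element, which started 242 and 237 bases before the gene's start. Of all 33469 promoter windows 0.798% held at least 1. In RefSeq's gene order Hspd1 stands next to Hspe1, the gene of its partner HSP10. The GRP78 window held 1 match to the ER stress element, which began 43 bases before the start and occurs in 0.0657% of all windows. The ERP72 window had no exact match to either motif in these 300 bases, and neither did the windows of HSP27 (Hspb1) and HSP90-beta (Hsp90ab1). The search allowed no changed base, so it cannot show that a window lacks such an element. ACGTG, a core of hypoxia response elements, was found once each in the windows of ERP72, GRP78 and HSP90-beta and in 19.3% of all windows. GCGTG, the other form of that core, was found 2 times in the HSP60 window, once in that of HSP90-beta and in 29.7% of all windows. These matches are letters and not measured sites. HSP70 has no window here, because its deposited name is shared by several RefSeq genes, among them the near-identical Hspa1a and Hspa1b, whose transcripts the spot may not tell apart.

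The membranes differed in quality. A spot counted as above background if it lay over 3 background spreads above its membrane's median, the spread being that of the dimmer spots. On normoxia membranes 139 to 205 genes did, against 72 to 186 in hypoxia. Chronic hypoxia membrane 2 had the 72, and chronic hypoxia membrane 3 had a lowest intensity of 14591 against 309 to 412 on the others. Across genes, chronic hypoxia membranes 1 and 3 had a rank correlation of 0.772, the highest of any pair. Deposited values were spaced by 51.75 on the first membrane of each group, by 103.25 on the second of each group and the third of normoxia, and by 72.5 on the third of chronic hypoxia. The spacing was read from the values alone, and its origin is not given in the sources used here. Membranes of equal spacing were compared as a possible technical batch, of which those of the first and second spacing hold both groups. The first spacing sets hypoxia membrane 1 against normoxia membrane 1, and the second sets hypoxia membrane 2 against normoxia membranes 2 and 3. Hypoxia membrane 3 has a spacing of its own. A fit with the spacing as a block therefore averages these same comparisons and is not separate from them. Of 6 glomus (chemoreceptor) cell markers Cpe, Dbh and Slc6a3 passed background on at least 3 membranes, while Chga, Scg2 and the vesicular monoamine transporter were above it on none. Endothelial markers reached 3 membranes for 2 of 3, the fibroblast marker Mmp2 did, and 0 of 5 glial and 0 of 2 immune markers did. The mean log2 level of the glomus markers was 12.33 to 12.91 in normoxia and 11.96 to 12.61 in hypoxia, and that of the endothelial markers 12.30 to 13.08 and 12.08 to 12.96. Both means include markers above background on none of the membranes, Flt1 among the endothelial ones, so they are in part levels of background. Mmp2 lay at 11.89 to 13.33 and 11.55 to 12.44. The part of cell makeup in the results was not tested, and fewer cells of a type cannot be told apart from less RNA per cell.

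None of the 5 genes passed the test between the conditions. The 3 cytosolic genes and HSP60, the 1 mitochondrial gene, had higher means in chronic hypoxia, and ERP72, the 1 ER gene, had a lower one. HSP60 differed by a log2 value of 1.55 and ERP72 by -0.76, and the median of the 3 cytosolic genes was 0.92. By limma with Benjamini-Hochberg adjustment over the 1038 genes tested, 0 of the 5 genes and 0% of all tested genes had an adjusted p under 0.05, and the lowest among the 5 was 0.645. At an unadjusted p under 0.05 the 5 genes held 1, HSP60, and the array 75 (7.23%). Hypoxia means were the higher ones for 4 of the 5 genes and for 51.8% of all tested genes, whose median log2 difference was 0.03. All 5 genes passed the filter on dim spots. HSP60, HSP90-beta and ERP72 were above background on at least 3 membranes, as were 152 genes in all, and HSP27 and HSP70 were above it on none.

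**Figure D1:**
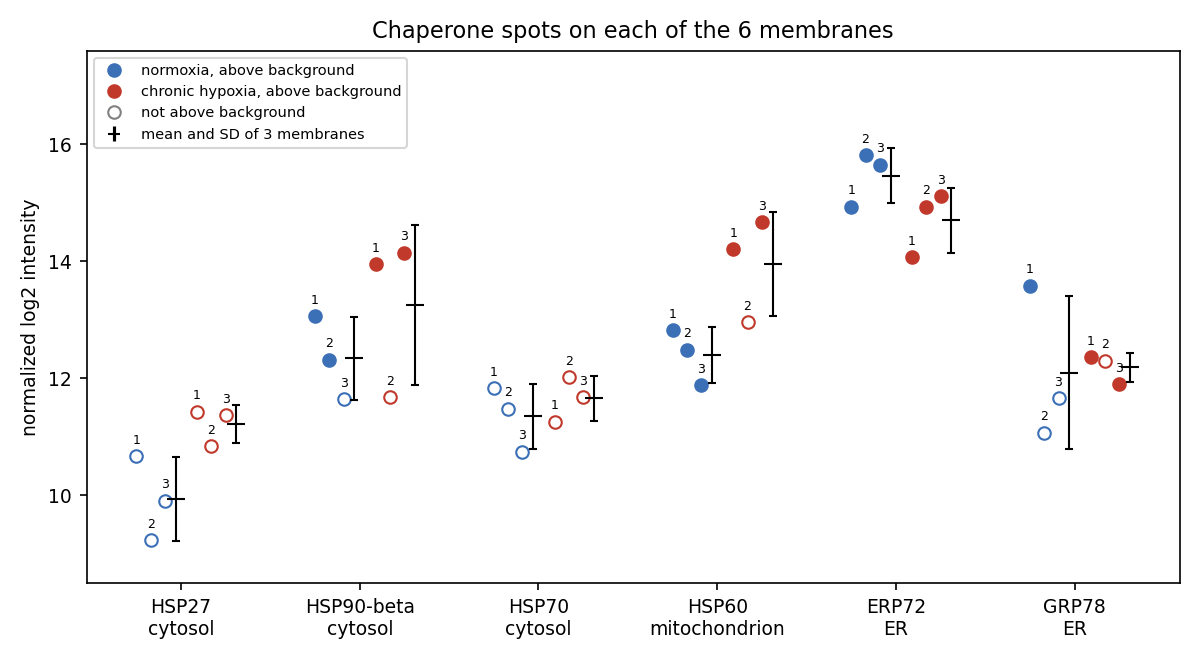
Normalized log2 intensity of the 5 genes and GRP78 on each membrane (numbers 1 to 3), in normoxia (blue) and chronic hypoxia (red), with open points where the spot was not above background and black marks for mean and SD of 3 membranes. All 3 HSP60 points of hypoxia lie above its normoxia points, but that of membrane 2 by a narrow margin (12.96 against 12.82) and not above background. ERP72 is lower on average in hypoxia, and hypoxia membrane 2 is the lowest of its group for HSP60 and HSP90-beta.

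HSP60, the chaperonin of the mitochondrial matrix, had deposited intensities of 8808, 6924 and 7546 on normoxia membranes 1 to 3 and of 20603, 5888 and 43943 on chronic hypoxia membranes 1 to 3. The limits of background on these membranes were 4561, 6300, 5458, 3261, 6406 and 19280. HSP60 was thus above background on all 3 normoxia membranes and on hypoxia membranes 1 and 3, and below the limit on hypoxia membrane 2. Counted in spreads of the background, HSP60 stood 8.97, 3.65 and 5.26 above the membrane median in normoxia and 36.4, 2.48 and 28.8 in hypoxia. The signal was clear on 2 hypoxia membranes and close to background on the other.

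After background correction and quantile normalization HSP60 was at 12.82, 12.49 and 11.88 (log2) in normoxia, and hypoxia gave 14.21, 12.96 and 14.67. The groups did not overlap on this scale, by a narrow margin, since the lowest hypoxia value came from the membrane on which the spot was not above background. On the scale of background spreads the groups overlapped. The means were 12.40 ± 0.48 (SD, n = 3) and 13.95 ± 0.89 (SD, n = 3), a 2.92-fold higher level in hypoxia, with an SE of 0.63 for the log2 difference and a 95% interval from 0.16 to 2.94 (limma adjusted p = 0.645). The exact two-sided permutation p was 0.1, the smallest that 20 assignments of 6 membranes allow. HSP60 had the fifth highest difference among the 152 genes with clear signal. Groups did not overlap, with hypoxia higher, for 6.58% of these 152 genes and for 6.45% of all tested genes.

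By value spacing, HSP60 differed by 1.39 in the first and 0.77 in the second, and a fit with the spacing as a block, which averages the same comparisons, gave 1.03. The hypoxia value of the second spacing is that of membrane 2, where the HSP60 spot was not above background. Without hypoxia membrane 2 it was 2.15 (limma adjusted p = 0.264), and without hypoxia membranes 1 and 3 in turn 1.34 and 1.18. With membrane weights it was 2.01 (limma adjusted p = 0.185). With hypoxia membranes 1 and 3, the pair of highest correlation, counted as 1 it was 1.30 (limma adjusted p = 0.872). It was 1.05 without normalization and 1.20 with median scaling. The sign was the same in all 19 alternatives, and in the 17 with a test the limma adjusted p ranged from 0.185 to 0.876. The changes of filter and the replicate block cannot alter the difference, so they do not test its sign.

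HSP90-beta, the constitutive cytosolic HSP90 that holds kinases and steroid receptors in an active shape, lies directly beside HSP60 on the membrane. Its intensities were 10522, 6612 and 5266 in normoxia and 15200, 4751 and 38667 in chronic hypoxia. It was above background on 2 membranes of each group, and on hypoxia membrane 2 it was not. Its normalized log2 values were 13.06, 12.32 and 11.64 in normoxia and 13.95, 11.68 and 14.15 in hypoxia. Hypoxia membranes 1 and 3 were above every normoxia membrane and membrane 2 was below 2 of them, so the groups overlapped. The log2 difference of 0.92 (SE 0.76, limma adjusted p = 0.777) corresponds to a 1.89-fold higher level. Without hypoxia membrane 2 it was 1.85 (limma adjusted p = 0.362), without membrane 3 it was 0.48, and without membrane 1 it was 0.52. By value spacing, HSP90-beta differed by 0.89 in the first and -0.31 in the second, and the block gave 0.21.

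HSP27, a small heat shock protein that keeps unfolding proteins soluble and binds actin filaments, and the spot named HSP70, a family of cytosolic chaperones, stayed at background on all 6 membranes. HSP27 intensities were 2063 to 2581 in normoxia and 2630, 3718 and 17895 on hypoxia membranes 1 to 3, close to the membrane medians of 1704, 3409 and 16411. Its normalized values were 10.67, 9.23 and 9.91 in normoxia and 11.43, 10.84 and 11.37 in hypoxia. The groups did not overlap, with hypoxia higher, as held for 6.45% of all tested genes. Its log2 difference was 1.28 (SE 0.59, limma adjusted p = 0.645), and 0.60 when no background was corrected. No fold is given for a spot at background in both groups. HSP70 was at 11.83, 11.48 and 10.75 in normoxia and at 11.26, 12.02 and 11.68 in hypoxia, a difference of 0.30 (SE 0.57, limma adjusted p = 0.906). The HSP70 groups overlapped, and by value spacing the difference was -0.56 in the first and 0.91 in the second.

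ERP72, a disulfide isomerase of the ER with several thioredoxin-like domains, was above background on all 6 membranes, as were 49 genes in all. Normoxia membranes 1 to 3 gave intensities of 42337, 45598 and 65238, and hypoxia membranes 1 to 3 gave 16647, 20929 and 48515. The value on normoxia membrane 3 lies within 5% of the ceiling of 65535, so differences that use it are not exact. In spreads of the background ERP72 stood 56.1, 43.8 and 67.6 above the median in normoxia and 28.8, 17.5 and 33.6 in hypoxia. On that scale every hypoxia membrane was below every normoxia membrane, as held for 5.92% of the 152 genes with clear signal.

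After quantile normalization ERP72 was at 14.93, 15.81 and 15.65 in normoxia and at 14.07, 14.93 and 15.11 in hypoxia, and the groups overlapped. The means were 15.46 ± 0.47 (SD, n = 3) and 14.70 ± 0.56 (SD, n = 3), 1.69-fold higher in normoxia. The log2 difference was -0.76 with an SE of 0.58 and a 95% interval from -2.04 to 0.52 (limma adjusted p = 0.764, exact permutation p = 0.3). ERP72 had the 23rd lowest difference of the 152 genes with clear signal. The first spacing gave -0.86, the second -0.80, and the block, an average of the same comparisons, -0.83. Without hypoxia membrane 1 it was -0.43, and without normoxia membrane 1 it was -1.06. The sign was the same in all 19 alternatives, among them the changes of filter and the replicate block, which cannot alter it. In the 17 that had a test the limma adjusted p lay between 0.485 and 0.926.

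**Figure D2:**
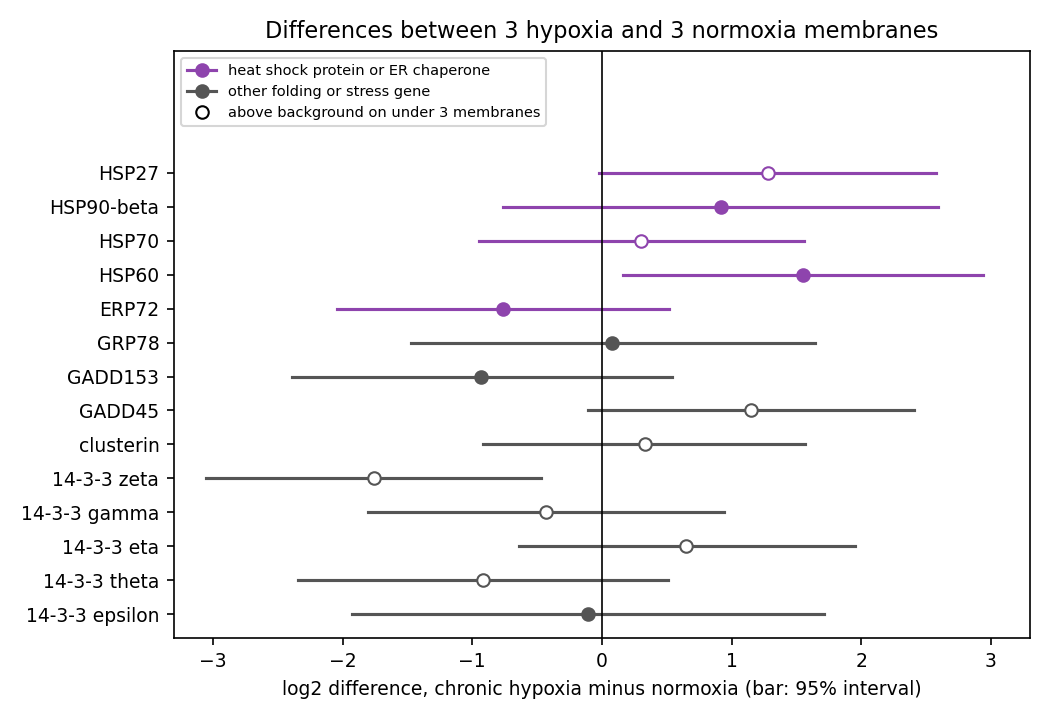
Log2 difference between chronic hypoxia and normoxia with its 95% interval from limma, for the 5 genes (purple) and the 9 tested genes of a list of other folding and stress genes (grey), with open points for genes above background on under 3 membranes. HSP60 lies at 1.55 and ERP72 at -0.76, and the intervals of all genes but HSP60 and 14-3-3 zeta cross 0.

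GRP78, the main HSP70-type chaperone of the ER, gave no direction. Its intensities were 14879, 4230 and 5379 in normoxia and 4291, 5366 and 19627 in hypoxia. It was above background on normoxia membrane 1 and on hypoxia membranes 1 and 3. Its normalized values were 13.58, 11.07 and 11.66 in normoxia and 12.36, 12.30 and 11.90 in hypoxia. Normoxia membrane 1 was the highest and normoxia membranes 2 and 3 the lowest of all 6, so the hypoxia values lay between them. The log2 difference was 0.08 (SE 0.70, limma adjusted p = 0.991), with -0.41 without normalization, -0.26 with median scaling and -0.10 with cyclic loess. By value spacing GRP78 differed by -1.22 in the first and 0.94 in the second. GRP78 thus showed no difference beyond its spread, with a 95% interval from -1.47 to 1.64 that includes the value of ERP72.

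To set genes of different compartments side by side, quantile-normalized log2 values of pairs of spots were subtracted within each membrane, for HSP60, HSP90-beta and ERP72. HSP60 minus ERP72 came to -2.10, -3.31 and -3.76 in normoxia and to 0.15, -1.97 and -0.44 in hypoxia. The groups were apart by a narrow margin, -1.97 on hypoxia membrane 2 against -2.10 on normoxia membrane 1. HSP60 was not above background on hypoxia membrane 2, and the ERP72 value of normoxia membrane 3 was near the ceiling. The mean shifted by 2.31, from -3.06 ± 0.86 (SD, n = 3) to -0.75 ± 1.09 (SD, n = 3). The exact permutation p was 0.1, and 0.15 adjusted over the 3 pairs compared. By value spacing it was 2.25 in the first and 1.57 in the second, and it was 1.86 to 2.91 when 1 membrane was left out in turn. Without normalization the values were -2.41, -3.12 and -3.27 in normoxia and 0.32, -2.27 and -0.21 in hypoxia. Their shift was 2.22 (exact permutation p = 0.1, adjusted over the 3 pairs 0.3), with 2.73 in the first spacing and 0.93 in the second, and hypoxia membrane 2 was again close to normoxia membrane 1. This pair was chosen with the differences of both genes known. Among all 11476 pairs of the 152 genes with clear signal, 13.2% had groups that did not overlap, in either direction.

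HSP90-beta minus ERP72 shifted by 1.68 (exact permutation p = 0.2, adjusted over the 3 pairs 0.2), with overlapping groups, and by 1.75 and 0.50 within the first and second spacing. HSP60 minus HSP90-beta shifted by 0.63 (exact permutation p = 0.1, adjusted over the 3 pairs 0.15), from 0.06 ± 0.26 (SD, n = 3) to 0.69 ± 0.53 (SD, n = 3), and the groups did not overlap. Without normalization that shift was 0.28 and the groups overlapped. The highest value of this pair, 1.28, came from hypoxia membrane 2, where neither spot was above background. None of the 3 pairs of genes passed the threshold, which 3 membranes against 3 cannot pass in an exact test, so the test cannot decide. A single gene stood for each compartment. GRP78, the other ER chaperone, was also above background on 3 membranes but was not paired, so these shifts are of genes and not of compartments.

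**Figure D3:**
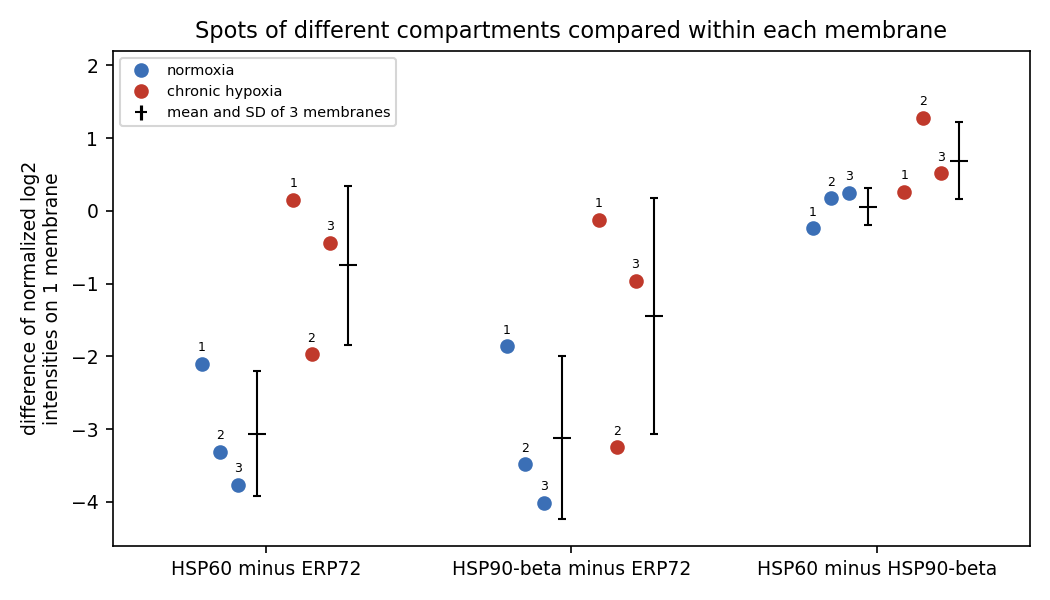
Difference of the normalized log2 intensities of 2 spots on the same membrane, for 3 pairs of genes, in normoxia (blue) and chronic hypoxia (red), with mean and SD of 3 membranes. For HSP60 minus ERP72 the hypoxia points, -1.97 to 0.15, all lie above the normoxia points, -3.76 to -2.10.

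HSP27, HSP90-beta, HSP60 and HSP70 stand in a row on the membrane, and ERP72 stands in another section. Of the 8 spots around HSP60, 5 were higher and 3 lower in hypoxia, and their log2 differences had a median of 0.36 and reached 1.15. The 8 include HSP90-beta, which had clear signal and differed by 0.92, and HSP70, at background, which differed by 0.30. The other neighbours with clear signal, c-H-ras and c-N-ras, differed by -0.25 and -0.07. Of the 8 spots around ERP72, 6 were lower in hypoxia, and their median of -0.76 equals the difference of ERP72 itself. The lowest of them, Fte-1, differed by -1.95, and the adjacent ubiquitin-conjugating enzyme UBE2B by -1.28. Uricase, opposite Fte-1, differed by -0.67, and the proteinase PCSK7, opposite UBE2B, by 0.31. The part of the place on the membrane in the HSP60 and ERP72 differences was not tested.

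**Figure D4:**
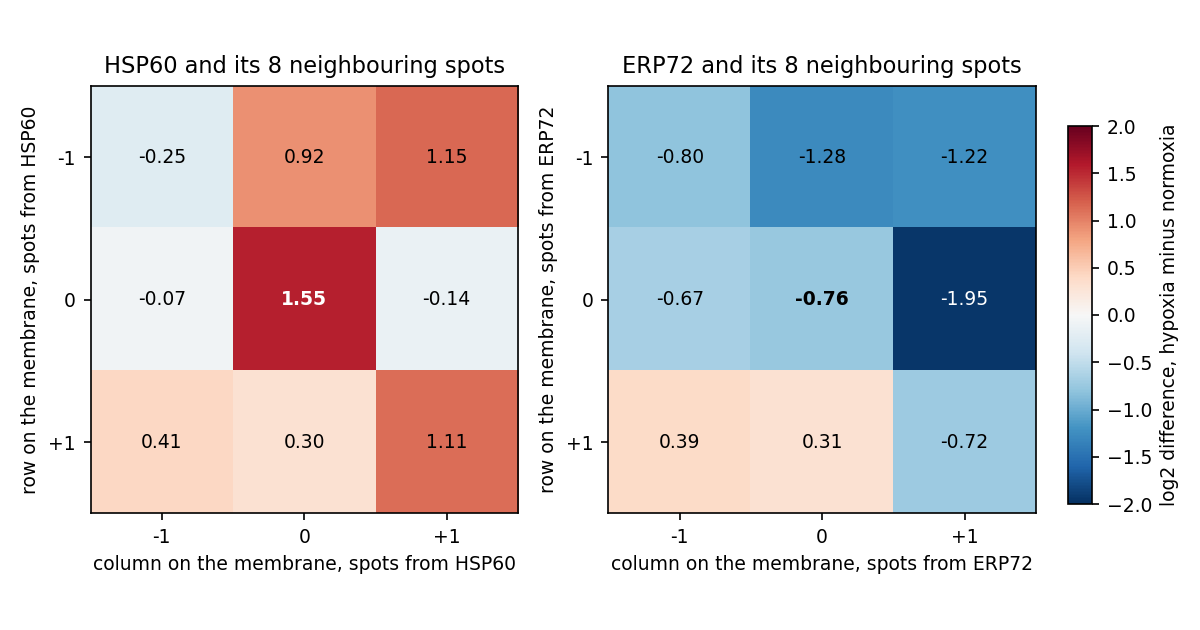
Log2 difference between chronic hypoxia and normoxia for HSP60 (left centre) and ERP72 (right centre) and for the 8 spots around each, by column and row on the membrane, with red for higher and blue for lower in hypoxia. HSP60 at 1.55 exceeds its 8 neighbours, while ERP72 at -0.76 equals the median of its own.

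Other genes of protein folding and stress were taken from a list of names and gave no common direction. The list held 10 genes, of which 6 were 14-3-3 proteins, adaptors that bind phosphorylated proteins, and GRP78 was among the other 4. Of 9 tested, 4 were higher and 5 lower in hypoxia, with a median of -0.11, and 0 passed (limma, lowest adjusted p = 0.645, 1 with an unadjusted p under 0.05). Among all tested genes 51.8% were higher in hypoxia, and 7.23% had an unadjusted limma p under 0.05. GADD153, the transcription factor CHOP that is induced when ER stress persists, had intensities of 5377, 15438 and 17932 in normoxia and 3668, 6097 and 18219 in hypoxia. It was above background on all 3 normoxia membranes and on hypoxia membrane 1. Its log2 difference was -0.93 (SE 0.66, limma adjusted p = 0.764), with overlapping groups, and -0.24 and -0.48 within the first and second spacing. It was -0.51 without normoxia membrane 2, -0.56 without hypoxia membrane 3 and -1.49 without hypoxia membrane 2. In spreads of the background it stood at 4.15, 12.5 and 16.5 in normoxia and at 3.78, 2.69 and 1.89 in hypoxia. On that scale the groups did not overlap, with hypoxia lower, as held for 5.92% of the 152 genes with clear signal.

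The signalling adaptor 14-3-3 epsilon was above background on 3 membranes and differed by -0.11 (SE 0.82, limma adjusted p = 0.991). The gene with the unadjusted p under 0.05, picked after its values were seen, was 14-3-3 zeta at -1.76 (SE 0.58, limma adjusted p = 0.645). It was above background on normoxia membrane 3 alone, so no fold is given. GADD45, a growth arrest gene, was above background on hypoxia membranes 1 and 3 and on no normoxia membrane. It had the highest difference of the list, 1.15 (SE 0.57, limma adjusted p = 0.645). Its groups did not overlap on the normalized scale, with hypoxia higher, as held for 6.45% of all tested genes. In spreads of the background its groups overlapped. Clusterin, an extracellular chaperone, was at background on all 6 and differed by 0.33 (SE 0.56, limma adjusted p = 0.892).

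The authors' deposited table, which gives 1 normalized intensity per gene and condition and lists 861 of the genes at 0 in both, differed from the membranes for some chaperones. The authors' deposited table listed HSP60 at 2631 for normoxia and 10934 for hypoxia, 4.16 times as much, and ERP72 at 47293 and 26721, a ratio of 1.77 in favour of normoxia. Both directions are those of the membrane means. The authors' values are means of the same membranes, so they are not separate support. In the authors' deposited table HSP90-beta had 3143 for normoxia but 0 for hypoxia, the reverse of its membrane means. Its spot was above background on hypoxia membranes 1 and 3. GRP78 was listed at 4445 and 0 in the authors' deposited table, and its spot too was above background on those 2 membranes. HSP27 and HSP70 were listed at 0 in both conditions of the authors' deposited table.

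**Figure D5:**
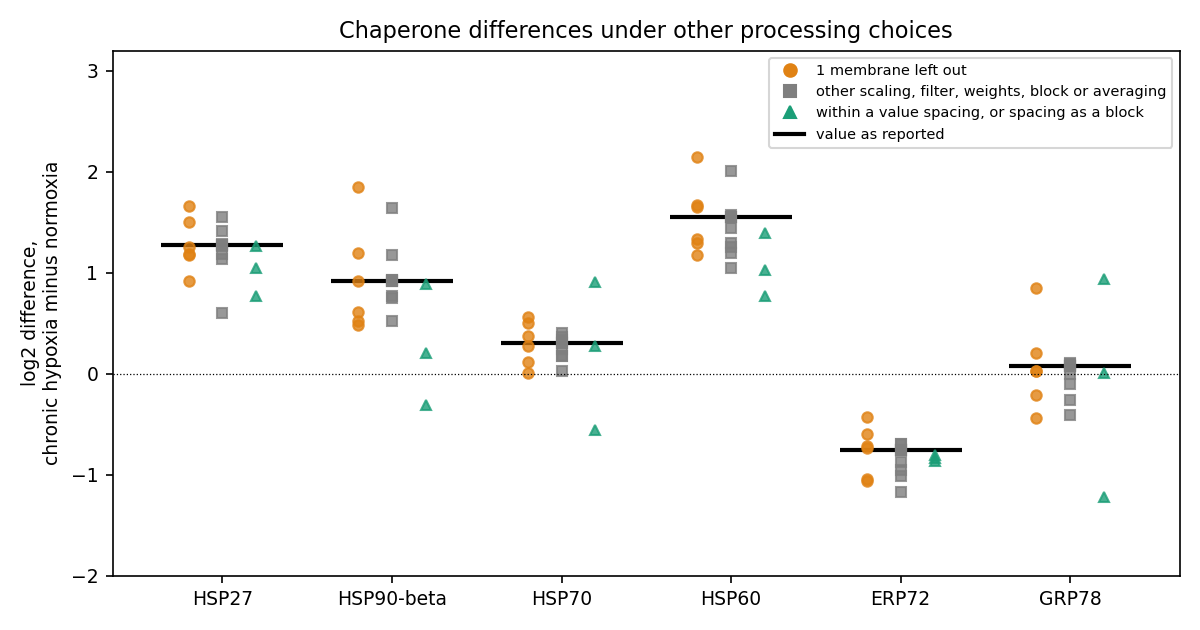
Log2 difference between chronic hypoxia and normoxia for the 5 genes and GRP78 under other processing choices, with a black line for the value as reported, orange for 1 membrane left out, grey for other scalings, filters, weights, blocks and averaging, and green for membranes of equal value spacing, or the spacing as a block. HSP60 stays between 0.77 and 2.15 and ERP72 between -1.17 and -0.43, while HSP90-beta, HSP70 and GRP78 have values on both sides of 0.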

How the data were processed

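Per the labels' protocols, AtlasImage V2.0 quantified phosphorimager scans of Atlas Rat 1.2 membranes, 3 per condition. Each deposited intensity is a linear brightness of 1 spot on 1 membrane, with background left in and no scaling between membranes. The authors also deposited a table of 1 normalized intensity per gene and condition, which was used as values alone. How its background was removed is not given in the sources used here.

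In limma 3.58.1 (R 4.3.3), normexp (offset 50), log2 and quantile normalization over the 6 membranes were applied. Tested genes passed the 25th percentile of 3 or more membranes. The fit used lmFit and eBayes with group as its single term, adjusted by Benjamini-Hochberg over 1038 genes, with a threshold of 0.05. The steps were also run on simulated data with simplified background noise, and no conclusion about these membranes rests on that run. Single values were also tested with exact permutation tests. Alternatives changed background correction, scaling, filter, weights, blocks and membranes. The members, lists and tests were chosen with earlier results of these data known. All 5 members were named, and of the second list those above background on at least 3 membranes; 14-3-3 zeta, GADD45 and clusterin, outside this rule, were named with their values known. Glypican-1 matched that list by the letters HSPG alone and was left out. Promoters came from RefSeq (GRCr8). Python 3.11.15 was used for the rest. The small number of arrays, 3 a group, limits precision.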

Additional observations from a re-analysis of the deposited data

How the results depend on the processing

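No alternative brought any of the 5 genes past the threshold, with the count at 0 in each test. Of the 5 genes, 4 were higher in chronic hypoxia in every leave-one-out fit (lowest 4, highest 4), 3 within the first and 3 within the second value spacing, and 2 of the 3 that remained when the fit was kept to spots above background on 3 or more membranes. The median of the cytosolic genes was 1.41 with membrane weights and 0.28 with the value spacing as a block, and 0.48 to 1.50 with 1 membrane left out. The mitochondrial value was 0.77 within the second value spacing, a comparison added after the data were seen, and 1.18 to 2.15 with 1 membrane left out. The 0.77 uses hypoxia membrane 2, on which HSP60 was not above background. The ER value was -1.06 to -0.43 with 1 membrane left out. The cause of these shifts was not tested.

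HSP90-beta turned to -0.31 within the second value spacing and HSP70 to -0.56 within the first. GRP78 turned in 7 of 19 alternatives, to -0.0021 with no background correction, -0.41 with no normalization, -0.26 with median scaling, -0.10 with cyclic loess and -1.22 within the first value spacing, and with 1 membrane left out it ranged from -0.44 to 0.85. HSP27, HSP60, ERP72 and GADD153 kept their sign in all alternatives that held them. The changes of filter and the replicate block cannot alter a difference, so they do not test its sign. Membrane numbers were not taken as pairs, since deviations of same-numbered membranes correlated at 0.0912, 0.114 and 0.0235. As a hint from the data, 4 of 6 membranes correlated best with their own number, and those numbered 1, like those numbered 2, share a value spacing. With the number as a replicate block 0 genes passed, as without it, and HSP60 differed by 1.55 (limma adjusted p = 0.590). Without normalization the median of all tested genes was -0.17. Signal limits HSP27 and HSP70, which no membrane showed above background.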
